A study of Rattus norvegicus with 16 samples.

Results

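The response of liver to glucocorticoids and its glucose production are described here through 10 genes, in adult male rats whose mothers received an environmental contaminant mixture or corn oil, and whose litters were fostered or left in place. They were listed by name and function, with earlier results of these data known: Nr3c1, Fkbp5, Tsc22d3, Klf9, Sgk1, Tat, Tdo2, Pck1, G6pc1 (formerly G6pc) and Igfbp1. All 10 were on the array, among 26913 named features, and all 10 were among the 11090 features bright enough in liver to be tested. Their place in the study is the fostering step, which gives a litter to another dam at birth. The stress hormone axis is one of the systems that early maternal care is known to shape in rats. No measure of that care is used here.

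Glucocorticoids released by the adrenal gland enter hepatocytes and bind the receptor encoded by Nr3c1, which is held ready by heat shock protein chaperones and then moves to the nucleus to switch genes on or off. In liver this hormone favours the breakdown of amino acids and the making of new glucose during fasting and stress, together with glucagon, which acts through cyclic AMP, and against insulin. The genes below stand at successive steps of that chain: the receptor, its feedback and early target genes, the amino acid enzymes Tat and Tdo2, the glucose-making enzymes Pck1 and G6pc1, and the secreted binding protein Igfbp1.

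The study used 16 Agilent 2-colour arrays for liver RNA, 4 for each group, from male Sprague-Dawley rats at postnatal day 78 to 86. In the CC group dams were dosed with corn oil and each litter was adopted by another corn oil dam at birth, while in the C group dams had corn oil and the pups stayed with their own mothers. In the MM group dams were dosed with 1 mg/kg/day of organochlorine pesticides, polychlorinated biphenyls and methylmercury in corn oil and litters were exchanged between dosed dams, while in the M group dams had the same mixture and kept their own pups. Dosing ran over gestation and lactation, from gestation day 0 until postnatal day 20, so the animals were sampled long after the last dose. Each array holds the pooled RNA of 2 rats out of 8 pups per group, the labels used here do not say which pups were littermates, and p-values below measure the spread between pools. One label of the M arrays calls them a control, whereas their title and treatment name the mixture, and they were taken as exposed.

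On every array the liver RNA carried Cy5 and a universal reference RNA from 14 rat cell lines carried Cy3, with no dye swap. Values are log2 of liver over reference signal after background correction and normalization within each array, called the log ratio. A value of 0 is equal normalized signal and a value of 1 is a doubling of it. An offset of 50 added to both signals in the correction compresses the ratios of dim spots. A feature counted as changed if its limma p-value, adjusted by Benjamini-Hochberg over all 11090 features, was under 0.05. The C and CC arrays shared slide 1 and the M and MM arrays shared slide 2. The fostering comparisons (CC against C, MM against M) therefore lie within a slide, but in M against C and in MM against CC the exposure and the slide cannot be told apart.

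In the liver channel 35.0% to 41.9% of probes per array stood well above background, and the median liver spot signal of 79 to 93 stood little above a median local background of 69 to 73. In each row of a slide the first-column array (CC replicate 1, C replicate 11, M replicate 5 or MM replicate 3) was the dimmest of its row, with median liver signals of 79 to 85 over these 4 arrays. It also had the most uneven replicate spots of the same probe in its row, with a coefficient of variation of 22.4% to 40.0%. All 9 hepatocyte markers (Alb, Apoa1, Ttr, Tf, Serpina1, Fgb, Ahsg, Apob and Cyp2e1) were tested and none was at background. Cd3e and Cd8a of T cells, Klrd1 of NK cells, Elane and Csf3r of neutrophils and Cftr of bile duct cells were on none of the arrays well above background. In whole liver, fewer cells of a type and less RNA per cell cannot be told apart.

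None of the 10 genes differed with fostering in control or in exposed litters at the adjusted threshold. In CC against C, 0 of 10 were called by limma, beside 0% of all 11090 features (the smallest adjusted p was 1.00), and 1 of 10, Klf9, had an unadjusted p under 0.05, beside 0.965% of all features. In MM against M, 0 of 10 were called, beside 0% of all features, and 0 of 10 had an unadjusted p under 0.05, beside 1.76%. In the difference between these fostering differences, (MM minus M) minus (CC minus C), 0 of 10 were called, beside 0% of all features, and 1 of 10, again Klf9, had an unadjusted p under 0.05, beside 1.66%. For no gene were the 4 arrays of CC separated from those of C, or those of MM from those of M, where 0.884% and 1.08% of all features had groups without overlap.

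**Figure D1:**
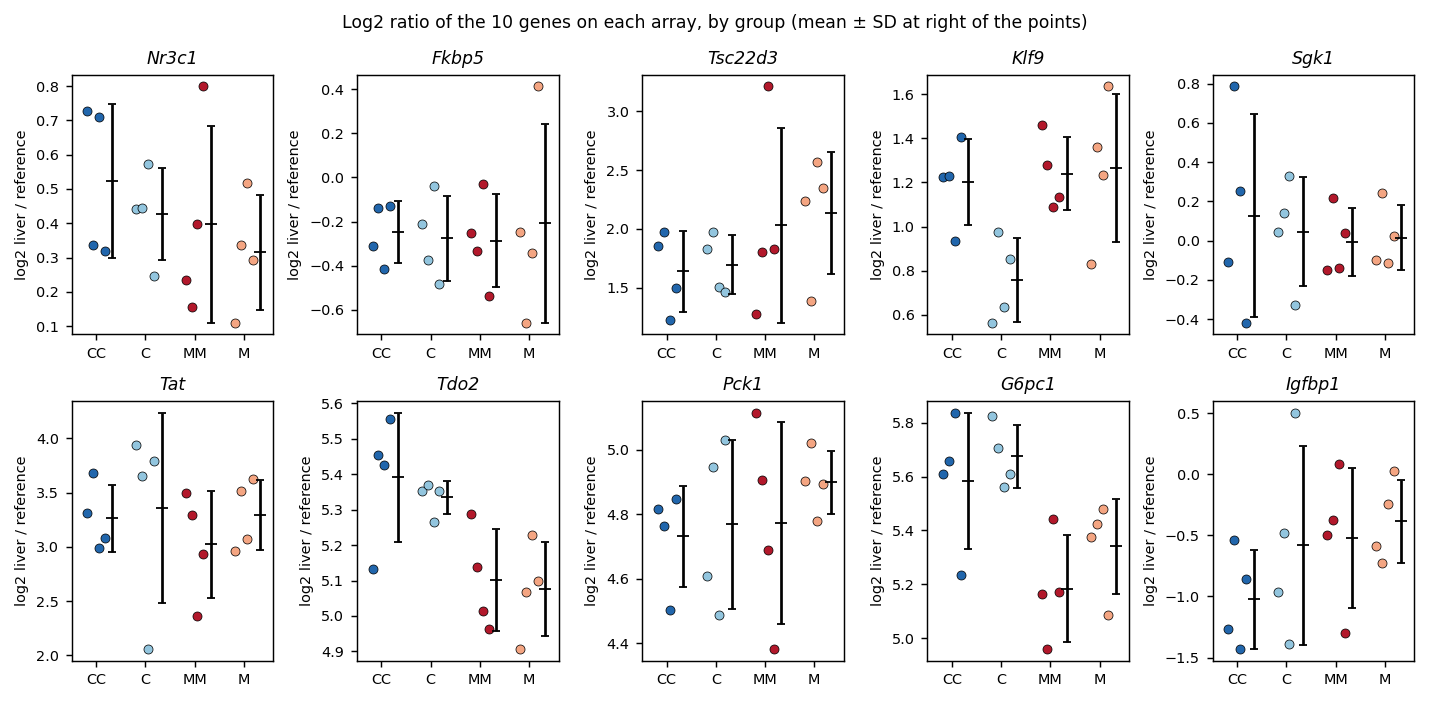
Log ratio of each of the 10 genes (y axis, log2 liver over reference, a separate scale per gene) on each array, by group on the x axis in the order CC, C, MM, M, with the mean and SD of the 4 arrays beside the points. Klf9 lies lowest in the C group, with values of 0.56 to 0.98, and Tdo2 and G6pc1 lie lower in M than in C without overlap.

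Nr3c1, the glucocorticoid receptor, was the faintest of the genes against its own background. Its brighter probe was well above background on 3 of 4 CC arrays, 2 C arrays, 1 MM array and 2 M arrays, so it entered the test through the CC group alone, in which its mean was highest. Its log ratios were 0.73, 0.34, 0.71 and 0.32 in CC livers, against 0.44, 0.44, 0.57 and 0.25 in C livers. They were 0.23, 0.16, 0.40 and 0.80 in MM livers, against 0.11, 0.34, 0.52 and 0.29 in M livers. The ranges of all 4 groups overlapped. The differences were 0.10 for CC minus C (95% interval -0.21 to 0.40) and 0.08 for MM minus M (-0.22 to 0.39), and the difference between them was -0.01 (-0.44 to 0.41). A second Nr3c1 probe was on none of the 16 arrays well above background.

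Fkbp5 encodes a co-chaperone that lowers the receptor's affinity for hormone and is itself induced by it, which closes a short feedback loop. Its log ratios were -0.31, -0.14, -0.41 and -0.13 in CC livers, against -0.21, -0.37, -0.04 and -0.48 in C livers, where the groups covered much the same range. In MM livers they were -0.25, -0.33, -0.03 and -0.54, against -0.25, -0.66, -0.34 and 0.41 in M livers, where M replicate 8 stood above every other array. The fostering differences were 0.03 ± 0.18 (SE, 4 arrays per group) for CC minus C and -0.08 ± 0.18 for MM minus M.

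Tsc22d3 encodes GILZ, a leucine zipper protein through which glucocorticoids dampen inflammation. Tsc22d3 log ratios were 1.86, 1.98, 1.22 and 1.50 in CC livers, against 1.83, 1.97, 1.51 and 1.46 in C livers. On slide 2 they were 1.28, 1.80, 3.21 and 1.83 in MM livers, against 2.24, 1.38, 2.57 and 2.35 in M livers. The value of 3.21 belongs to MM replicate 3, the dimmest array of the set, and the SD was 0.828 in MM and 0.520 in M, against 0.343 in CC and 0.250 in C. With that spread the interval of the fostering difference was wide, from -0.77 to 0.66 for CC minus C and from -0.81 to 0.61 for MM minus M.

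Klf9, a zinc finger transcription factor induced directly by the receptor, had the smallest p-value of the 10 genes in CC against C. Klf9 log ratios were 1.22, 1.23, 0.94 and 1.41 in CC livers, against 0.56, 0.98, 0.63 and 0.85 in C livers. CC replicates 1, 2 and 4 lay above every C array, and CC replicate 3 lay just below the highest C array. The difference was 0.44 ± 0.15, a 1.36-fold higher ratio in CC (95% interval 1.08 to 1.71, limma adjusted p = 1.00), so it did not pass the test. In exposed litters Klf9 stood at 1.46, 1.28, 1.09 and 1.13 in MM livers, against 0.83, 1.36, 1.24 and 1.63 in M livers. These groups overlapped almost wholly, with a difference of -0.02 ± 0.15.

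The group means of Klf9 were 1.20 ± 0.195 in CC and 0.758 ± 0.191 in C, with 1.24 ± 0.166 in MM and 1.26 ± 0.335 in M (SD, n = 4 arrays each). By log ratio the C group was thus the one that stood apart, while the means of the other 3 groups lay closer to each other than their SDs. This comparison crosses the slides, between which the Klf9 reference channel differed by 0.26 (M minus C) and 0.23 (MM minus CC). In the liver channel alone the means were 9.89 in C, 10.39 in CC, 10.65 in M and 10.66 in MM. There CC lay between C and the slide 2 groups. In log ratio the difference between the fostering differences was -0.47 ± 0.22 (95% interval -0.93 to -0.0027, limma adjusted p = 1.00). Within the upper row of each slide it was -0.18 and within the lower row -0.75, and over all 16 single arrays left out in turn it ran from -0.61 to -0.34. The CC minus C difference was 0.46 in the upper row and 0.43 in the lower row. These rows are parts of the same arrays that gave Klf9 its small p-value, so they are not a separate test of it.

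Markers of sinusoidal endothelium had the same signs as Klf9. All 5 tested of 8 listed lay above 0 in CC minus C (median 0.19) and all 5 lay below 0 in the difference of differences (median -0.32), although none was called in either. Their summed liver signal was 3392 to 4107 in CC against 2510 to 4251 in C, and 2905 to 3846 in MM against 3119 to 4045 in M. Of the 9 Kupffer cell and macrophage markers 7 lay above 0 in CC minus C and 7 below 0 in the difference of differences. Other cell types had the opposite sign in the difference of differences, in which 8 of 9 hepatocyte markers (median 0.13), 7 of 8 stellate cell markers (median 0.07) and 4 of 5 erythroid markers (median 0.52) lay above 0. Without the 4 first-column arrays, 4 of the 5 endothelial markers lay above 0 in CC minus C (median 0.07) and 3 of 5 lay below 0 in the difference of differences, and 3 of the 9 macrophage markers lay above 0 in CC minus C. The part of these cells in the Klf9 values was not tested.

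The 250 bases upstream of the RefSeq start of Klf9 are shown because Klf9 had the smallest p-value of the 10 genes in CC against C. They lie at chr1:230126396-230126645 of the GRCr8 assembly, on the plus strand, written 5′ to 3′ up to the base before the start. Capitals mark TGACG, the short form of the cyclic AMP response element, at 79 bases before the start.
Klf9: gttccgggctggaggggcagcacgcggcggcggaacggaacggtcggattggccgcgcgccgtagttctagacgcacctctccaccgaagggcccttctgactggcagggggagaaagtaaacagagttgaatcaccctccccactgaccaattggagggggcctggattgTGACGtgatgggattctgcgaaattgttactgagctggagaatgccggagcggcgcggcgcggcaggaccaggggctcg
TGACG occurred on either strand in 21.2% of all 33469 RefSeq promoter windows of 300 bases (250 before to 50 after the start). Of the 15 windows that the 10 genes have, 3 held it, in 3 of the genes. The short glucocorticoid response element TGTTCT was in 20.7% of all windows and in none of these 15. Its palindrome core ACANNNTGT was in 6.86% of all windows and in 2 of the 15, in Tsc22d3 and Tdo2. A match or its absence describes the letters of this window only.

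Sgk1 encodes a kinase that is induced by glucocorticoids and mineralocorticoids and acts on ion channels and on FOXO factors. Sgk1 log ratios were -0.11, 0.79, 0.25 and -0.42 in CC livers, against 0.04, 0.14, 0.33 and -0.33 in C livers. CC replicates 2 and 4 were the highest and the lowest of all 16 arrays. The log ratios were -0.15, 0.22, -0.14 and 0.04 in MM livers, against -0.10, 0.25, -0.11 and 0.02 in M livers, and these groups overlapped closely. Differences were 0.08 ± 0.20 for CC minus C and -0.02 ± 0.20 for MM minus M.

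Tat, tyrosine aminotransferase, starts the breakdown of tyrosine and is a classical glucocorticoid-induced liver enzyme. Tat log ratios were 3.31, 3.68, 2.99 and 3.08 in CC livers, against 3.94, 3.66, 2.06 and 3.79 in C livers. In exposed litters they were 3.50, 3.29, 2.36 and 2.94 in MM livers, against 2.96, 3.52, 3.07 and 3.63 in M livers. The lowest values of all, 2.06 in C replicate 11 and 2.36 in MM replicate 3, belong to first-column arrays. With group means removed, the 4 first-column arrays averaged -0.56 for Tat, while the other columns averaged 0.14, 0.24 and 0.18. Tat differed by -0.10 ± 0.35 for CC minus C and by -0.27 ± 0.35 for MM minus M. Without the 4 first-column arrays, a choice made after the values were seen, the difference between these differences was 0.39 where it was -0.17 with them.

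Tdo2, tryptophan 2,3-dioxygenase, opens the kynurenine pathway of tryptophan breakdown and is likewise induced by glucocorticoids. Its probe is printed as 10 spots on each array. Tdo2 log ratios were 5.13, 5.45, 5.43 and 5.55 in CC livers, against 5.35, 5.37, 5.26 and 5.35 in C livers. In MM livers they were 5.29, 5.14, 5.02 and 4.96, against 4.91, 5.07, 5.23 and 5.10 in M livers. Both pairs overlapped, and the fostering differences were 0.06 ± 0.10 and 0.03 ± 0.10, the narrowest intervals among the genes (-0.16 to 0.27 and -0.19 to 0.24). In the liver channel alone the differences of Tdo2 were 0.21 ± 0.28 for CC minus C and -0.18 ± 0.28 for MM minus M.

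Pck1, cytosolic phosphoenolpyruvate carboxykinase, makes phosphoenolpyruvate from oxaloacetate and is switched on by glucagon and glucocorticoids and off by insulin. Pck1 log ratios were 4.82, 4.76, 4.50 and 4.85 in CC livers, against 4.61, 4.95, 4.49 and 5.03 in C livers. They were 5.12, 4.91, 4.69 and 4.38 in MM livers, against 4.90, 5.02, 4.78 and 4.89 in M livers, where MM held both the highest and the lowest array. The differences were -0.04 ± 0.15 and -0.13 ± 0.15. On average normalized liver signal exceeded the normalized reference signal 27.7-fold for Pck1.

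G6pc1, the catalytic subunit of glucose-6-phosphatase, releases free glucose in the last step of gluconeogenesis. Its brighter probe gave log ratios of 5.61, 5.66, 5.84 and 5.24 in CC livers, against 5.82, 5.71, 5.56 and 5.61 in C livers. It gave 5.16, 4.96, 5.44 and 5.17 in MM livers, against 5.38, 5.42, 5.48 and 5.09 in M livers. CC replicate 4 was the lowest of slide 1, and otherwise the groups of each pair interleaved. The fostering differences of this probe were -0.09 ± 0.13 and -0.16 ± 0.13.

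The dimmer G6pc1 probe gave larger differences of the same sign. Its log ratios were 3.45, 3.94, 3.75 and 2.66 in CC livers, against 4.28, 4.11, 3.43 and 4.05 in C livers. They were 2.63, 2.49, 3.47 and 3.30 in MM livers, against 3.27, 3.36, 3.86 and 3.40 in M livers. C replicates 9, 10 and 12 lay above every CC array, and the 2 lowest arrays of slide 2 were MM. The differences were -0.51 ± 0.28 for CC minus C (95% interval -1.10 to 0.07) and -0.50 ± 0.28 for MM minus M (-1.08 to 0.08), with a limma adjusted p of 1.00 in both. The difference between the fostering differences was 0.01 ± 0.39 for this probe and -0.07 ± 0.19 for the brighter one.

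Igfbp1 encodes an insulin-like growth factor binding protein that the liver secretes in fasting and stress and whose gene insulin turns off. Igfbp1 log ratios were -1.27, -0.54, -1.43 and -0.85 in CC livers, against -0.96, -0.48, -1.39 and 0.50 in C livers. In exposed litters they were -0.50, -0.37, 0.08 and -1.30 in MM livers, against -0.59, -0.73, -0.25 and 0.02 in M livers. Highest and lowest arrays differed 3.82-fold, and C replicate 12 and CC replicate 3 were the extremes. The fostering differences were -0.44 ± 0.35 (95% interval -1.19 to 0.31) and -0.14 ± 0.35, and a 2-fold lower ratio in CC lies inside the first interval. Without C replicate 12 the CC minus C difference was -0.08, and without C replicate 11 it was -0.71.

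**Figure D2:**
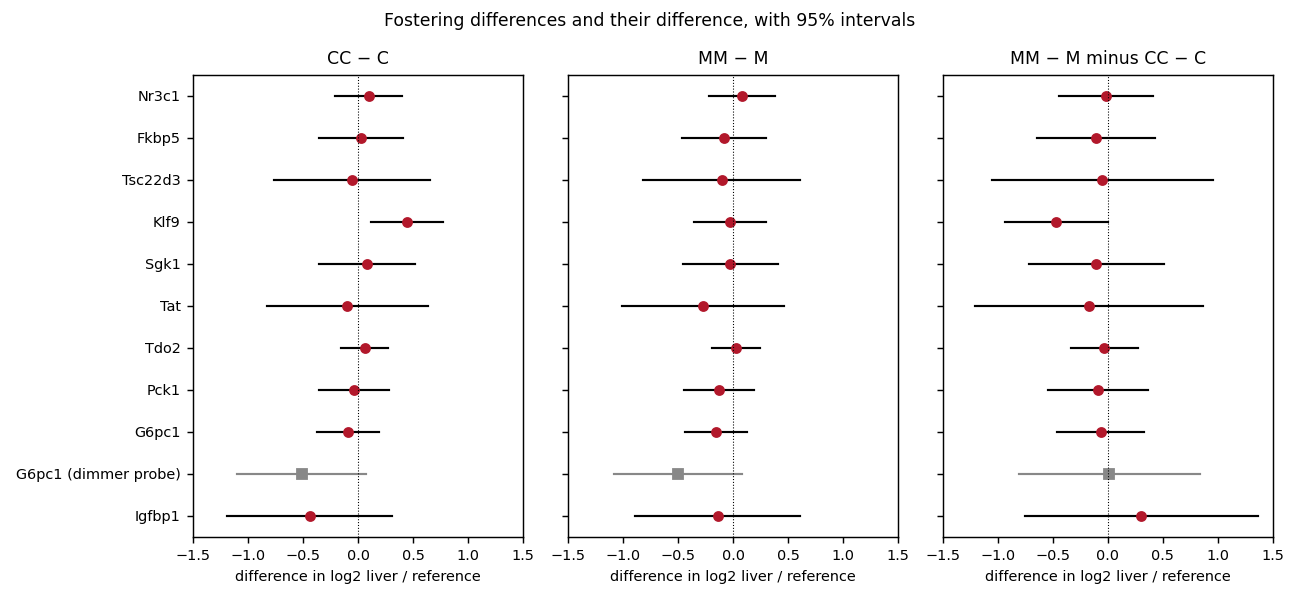
Differences in log ratio (x axes, log2) for CC minus C, MM minus M and the difference between them, with 95% intervals, for the 10 genes and, in grey, the dimmer G6pc1 probe. The Klf9 interval lies above 0 in CC minus C (0.11 to 0.77) and includes 0 in MM minus M (-0.35 to 0.30), and the intervals of Tsc22d3, Tat and Igfbp1 are the widest.

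By sign, 5 of the 10 genes lay above 0 in CC minus C, beside 46.8% of all features, and 2 of 10, Nr3c1 and Tdo2, in MM minus M, beside 50.6%. In the difference between fostering differences 9 of 10 lay below 0, all but Igfbp1, where 47.9% of all features did, and 7 of 10 without the 4 first-column arrays. The median over the genes was -0.08 there, against 0.01 over all features. Of these 9 negative values 8 were smaller in size than their own standard error, and the Klf9 value exceeded it. For 9 of 10 genes in CC minus C, 9 of 10 in MM minus M and 7 of 10 in the difference between them, the 95% interval lay wholly within a 2-fold change either way. These counts take each gene by its brightest probe. The interval of the dimmer G6pc1 probe reached past a 2-fold lower ratio, to -1.10 in CC minus C and -1.08 in MM minus M. The counts also include Nr3c1, whose brighter probe was well above background on 8 of 16 arrays. The offset of 50 compresses log ratios of such dim spots, so its interval does not bound the change in its RNA. In CC replicate 1, for example, its log ratio was 0.73 here and 2.39 by the scanner software.

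Upstream regions are shown for 3 genes on which insulin and glucagon act, because the response elements of both hormones are textbook features of their control. All are RefSeq GRCr8, plus strand, 250 bases up to the base before the start, at chr3:182348322-182348571 for Pck1, chr10:86807409-86807658 for G6pc1 and chr14:86261027-86261276 for Igfbp1. Capitals mark CGTCA in Pck1, which is TGACG read on the other strand, TGTTTTG (the insulin response element core) and TATAAA (the TATA box) in G6pc1, and CAAAACA, which is TGTTTTG on the other strand, in Igfbp1.
Pck1: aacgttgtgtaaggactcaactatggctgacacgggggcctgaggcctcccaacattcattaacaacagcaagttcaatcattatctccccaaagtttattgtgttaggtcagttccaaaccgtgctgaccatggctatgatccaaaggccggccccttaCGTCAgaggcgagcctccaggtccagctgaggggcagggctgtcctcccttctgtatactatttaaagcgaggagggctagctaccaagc
G6pc1: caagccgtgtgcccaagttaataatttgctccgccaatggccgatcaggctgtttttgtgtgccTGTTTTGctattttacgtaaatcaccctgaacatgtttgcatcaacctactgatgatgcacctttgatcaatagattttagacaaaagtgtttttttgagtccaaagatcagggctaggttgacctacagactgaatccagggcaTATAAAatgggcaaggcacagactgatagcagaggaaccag
Igfbp1: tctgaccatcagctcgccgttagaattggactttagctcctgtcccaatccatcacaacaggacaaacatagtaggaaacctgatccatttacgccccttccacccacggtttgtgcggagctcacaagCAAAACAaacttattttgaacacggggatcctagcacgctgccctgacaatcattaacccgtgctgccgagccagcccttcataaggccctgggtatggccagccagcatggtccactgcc
The match lies 90 bases before the start in Pck1 and 121 bases before it in Igfbp1, while in G6pc1 TGTTTTG lies at 186 and TATAAA at 41 bases before the start. TGTTTTG was found in 6.28% of all windows and in 3 of the 15 windows of the 10 genes, those of G6pc1 and Igfbp1 and 1 of Sgk1. TATAAA was in 14.2% of all windows and in 5 of the 15, which belong to 4 of the 10 genes. The full palindrome TGACGTCA was in 1.83% of all windows and in none of these genes.

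No gene of the wider pathway lists was called with fostering. Of 24 other glucocorticoid-induced genes 18 were tested, and none was called in CC minus C, in MM minus M or in their difference. In CC minus C 13 of 18 lay above 0 (median 0.07, against -0.01 over all features), in MM minus M 13 lay below 0 (median -0.04, against 0.001), and in the difference 16 of 18 lay below 0 (median -0.09, against 0.01), or 13 of 18 without the 4 first-column arrays. Lcn2, which encodes the acute phase protein lipocalin 2, had the lowest p of the list in MM minus M, at -0.52 ± 0.24 (95% interval -1.04 to -0.0049, limma adjusted p = 1.00). Lcn2 log ratios were -1.78, -1.55, -1.42 and -2.07 in MM livers, against -0.27, -1.51, -1.23 and -1.73 in M livers, and 1 array, M replicate 5, lay well above the rest. Without M replicate 5 the difference was -0.22. The remaining genes that ranked first or second by p in this list were Pdk4, which restrains glucose oxidation (MM minus M -0.23), Errfi1, an inhibitor of the epidermal growth factor receptor (CC minus C 0.11), the acute phase gene Orm1 (CC minus C 0.14) and Crispld2 (difference of differences -0.23). Pdk4 was well above background on 4 C, 2 CC, 2 M and 1 MM arrays. It entered the test through the C group alone, in which its mean was highest, and its value is given as a description.

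Receptor partners and hormone-handling enzymes showed no fostering call among 14 tested of 17, of which 8 lay below 0 in the difference of differences (median -0.06). The largest value belonged to Srd5a1, a steroid 5-alpha-reductase, at -0.85 ± 0.52 in the difference of differences (95% interval -1.96 to 0.26). Srd5a1 was lowest on 2 first-column arrays, at 1.74 in MM replicate 3 and 1.73 in C replicate 11, and without the 4 first-column arrays its difference of differences was -0.04. Nr3c2, the mineralocorticoid receptor, had 0.18 ± 0.15 in CC minus C and -0.38 ± 0.21 in the difference (95% interval -0.83 to 0.07). Hsd11b2, which inactivates corticosterone, was at -0.15 in CC minus C, and the co-chaperone Fkbp4 was at -0.15 in MM minus M.

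Other gluconeogenic enzymes, 18 tested of 20, had no fostering call either, and 10 of 18 lay above 0 in the difference of differences (median 0.02), or 5 of 18 without the 4 first-column arrays. Mdh2, mitochondrial malate dehydrogenase, had the lowest p among them, at -0.24 ± 0.09 in MM minus M (95% interval -0.44 to -0.04, limma adjusted p = 1.00). Its log ratios were 0.37, 0.36, 0.12 and 0.34 in MM livers, against 0.61, 0.52, 0.41 and 0.61 in M livers. These 4 and 4 arrays did not overlap, beside 1.08% of all features without overlap in MM minus M. Mdh1, the cytosolic form, was at -0.27 ± 0.19 in MM minus M. Without the 4 first-column arrays Mdh2 was at -0.15 and Mdh1 at -0.04. Pck2 (-0.12) and Eno1 (-0.08) ranked first and second in CC minus C, and without C replicate 11 both were at -0.02.

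Regulators of gluconeogenesis and enzymes of opposing glycolysis, 15 tested of 19, likewise gave no fostering call, and 11 of 15 lay below 0 in the difference of differences (median -0.08), or 8 of 15 without the 4 first-column arrays. Insr, the insulin receptor, was at 0.20 ± 0.09 in CC minus C (95% interval 0.01 to 0.38, limma adjusted p = 1.00) and at 0.15 ± 0.09 in MM minus M. Insr was well above background on 3 CC arrays but 1 C array, and on 4 MM arrays but 1 M array, so it entered the test only through the fostered groups, in which it was high, and its differences are given as a description. Its log ratios were 0.54, 0.62, 0.64 and 0.67 in CC livers, against 0.24, 0.54, 0.37 and 0.54 in C livers, and 0.60, 0.32, 0.58 and 0.61 in MM livers, against 0.33, 0.40, 0.33 and 0.44 in M livers. Cebpa was at -0.36 ± 0.25 (-0.11 without the 4 first-column arrays) and the early response gene Nr4a1 at 0.29 ± 0.21 in the difference of differences. Of the tyrosine and tryptophan breakdown enzymes downstream of Tat and Tdo2, 12 tested of 13, none was called, and 10 of 12 lay below 0 in the difference of differences (median -0.12). Without the 4 first-column arrays 5 of 12 did (median 0.10). Kmo (-0.34 ± 0.19) and Qprt (-0.24 ± 0.14), enzymes of the kynurenine pathway, ranked first and second in MM minus M, and Afmid (-0.11) and Hpd (0.13) in CC minus C. Without the 4 first-column arrays Qprt was at -0.11 and Hpd at -0.08.

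Between exposed and control livers 0 of the 10 genes passed the adjusted threshold as well. In M against C limma called 0 of 10, beside 4.14% of all features, and 3 of 10 had an unadjusted p under 0.05, beside 17.3%. In MM against CC 0 of 10 were called, beside 0.902% of all features, and 2 of 10 had an unadjusted p under 0.05, beside 11.1%. Replicate numbers of CC and MM coincide with the slide row. With that number as a block on the CC and MM arrays, 135 features were called, where the same arrays without the block gave 14 and all 16 arrays gave 100, and 0 of the 10 genes were called with the block. The 4 arrays of M and C did not overlap for 2 of 10 genes, Tdo2 and G6pc1, beside 10.9% of all features, and those of MM and CC overlapped for all 10, beside 6.6% without overlap. By sign 5 of 10 lay above 0 in M minus C, beside 43.5% of all features, and 4 of 10 in MM minus CC, beside 43.9%.

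Klf9 came closest, with an M minus C difference of 0.51 ± 0.15, which is 1.42-fold (95% interval 1.13 to 1.78, limma adjusted p = 0.0807). In MM minus CC Klf9 differed by 0.04 ± 0.15. In the liver channel alone the M minus C difference of Klf9 was 0.77 ± 0.15 with a limma adjusted p of 0.0496, and the reference channel, which holds the same RNA on every array, also differed, by 0.26 between the slides. Over the other 11 alternatives the adjusted p ran up to 0.414. Leaving out M replicate 5, the lowest Klf9 value of its group, gave an adjusted p of 0.0227, and for each other array left out it stayed above 0.05, up to 0.242.

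Tdo2 was lower in M than in C by 0.26 ± 0.10 (limma adjusted p = 0.194) and lower in MM than in CC by 0.29 ± 0.10 (adjusted p = 0.250). In the single channels its liver signal was 0.24 higher in M than in C (limma adjusted p = 0.902) and the reference signal was 0.49 higher (adjusted p = 0.097), and the log ratio is the one minus the other. The brighter G6pc1 probe was lower in M than in C by 0.33 ± 0.13, which is 0.793-fold (limma adjusted p = 0.194), and lower in MM than in CC by 0.40 ± 0.13 (adjusted p = 0.213). Its liver channel was lower by 0.43 ± 0.32 in M and its reference channel by 0.09 ± 0.22. With the scanner software's own log ratio this probe was called in M against C, at -0.36 with a limma adjusted p of 0.0377. The dimmer probe was at -0.49 ± 0.28 and -0.48 ± 0.28 (adjusted p = 0.406 and 0.571).

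**Figure D3:**
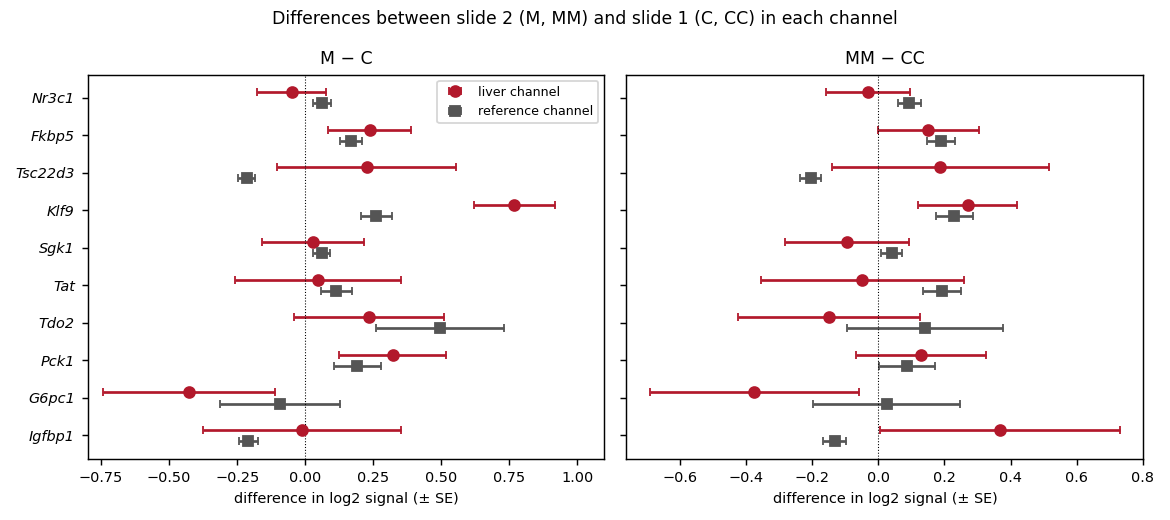
Difference in normalized log2 signal (x axes) between M and C and between MM and CC, for the liver channel (red circles) and the reference channel (grey squares), with standard errors, for the 10 genes. The reference channel, which holds the same RNA on every array, is away from 0 by more than its standard error for most genes, and for Tdo2 it exceeds the liver difference in M minus C.

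The reference channel itself separated the slides: 47.1% of the 11090 features were called in it between M and C arrays and 44.6% between MM and CC arrays, against 0 in each fostering comparison. Hepatocyte markers lay lower too in log ratio, with 9 of 9 below 0 in M minus C (median -0.28) and 8 of 9 in MM minus CC (median -0.18). In the liver channel alone their medians were -0.12 and -0.11. Limma called 1 of the 9 in M minus C, beside 4.14% of all features, and 0 in MM minus CC, beside 0.902%. The summed liver signal of the hepatocyte markers was 1054428 to 1143479 in M against 1086141 to 1475395 in C, and 970178 to 1293482 in MM against 1144749 to 1396831 in CC. Of the 5 tested erythroid markers all 5 lay below 0 in M minus C (median -0.61, and -0.54 in the liver channel alone), and 1 was called. Their summed signals were 30586 to 49035 in M against 59506 to 78474 in C. In MM minus CC 4 of 5 lay below 0 (median -0.10), with 38455 to 102824 in MM against 35311 to 67584 in CC, and without the 4 first-column arrays 1 of 5 did. The part of these differences in the values of Tdo2, G6pc1 and Klf9 was not tested.

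Of 77 tested pathway genes outside the 10, limma called 3 in M against C (3.9%, beside 4.14% of all features) and 1 of them in MM against CC (1.3%, beside 0.902%), and they are named here after their values were seen. Hsp90ab1, an HSP90 chaperone of the receptor, had a log ratio lower by 1.45 ± 0.19 in M than in C (limma adjusted p = 0.000626) and lower by 1.15 ± 0.19 in MM than in CC (adjusted p = 0.00899). In the liver channel alone Hsp90ab1 was at 0.09 in M minus C (adjusted p = 0.959) and 0.34 in MM minus CC (adjusted p = 0.944), so the direction is not kept there. Mdh2 was higher by 0.55 in M than in C (limma adjusted p = 0.00332), with M at 0.41 to 0.61 and C at -0.17 to 0.17, and its liver channel difference was 0.30 (adjusted p = 0.179). Fbp1, fructose-1,6-bisphosphatase, was lower by 0.31 ± 0.08 in M than in C (limma adjusted p = 0.0424), a call kept in 4 of 12 alternatives and in 3 of 16 fits without 1 array, with a liver channel difference of -0.03.

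For the genes that liver expresses far above the reference, the reference spot followed the liver spot from array to array. This comparison was added after the values were seen and covers the 12 probes of the 10 genes, as raw log2 medians with group means removed over 16 arrays. The 2 channels of the brighter G6pc1 probe correlated with Pearson's r = 0.890 and Spearman's rho = 0.903 (permutation test, adjusted p = 0.0019 and 0.0017), and r was 0.906 without the 2 arrays farthest from the median. The dimmer G6pc1 probe gave r = 0.823 and rho = 0.830 (adjusted permutation p = 0.0019 and 0.0047). Tdo2 gave r = 0.860 and rho = 0.788 (adjusted permutation p = 0.0391 and 0.0567), with r = 0.714 without the 2 farthest arrays, and Pck1 gave r = 0.689 and rho = 0.680 (adjusted permutation p = 0.0284 and 0.0492).

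The raw signals behind this were large swings. The brighter G6pc1 spot ran from 3334 to 14361 units in the liver channel and from 244 to 550 in the reference channel, and the Tdo2 spots ran from 1676 to 6687 in liver and from 127 to 360 in the reference. Tat gave r = 0.504 (adjusted permutation p = 0.0929), and the probes of Nr3c1, Fkbp5, Tsc22d3, Klf9, Sgk1 and Igfbp1 gave r between -0.15 and 0.22. Over all 11090 features the median r was 0.225 and 19.3% exceeded 0.5, and over the 356 features with a log ratio above 4 the median was 0.359 and 32% exceeded 0.5. A log ratio subtracts what the channels share, whatever its source, and the source of the shared part was not tested. For G6pc1 in CC minus C, for instance, the liver channel differed by -0.45 ± 0.32 and the reference channel by -0.36, which left a log ratio difference of -0.09.

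**Figure D4:**
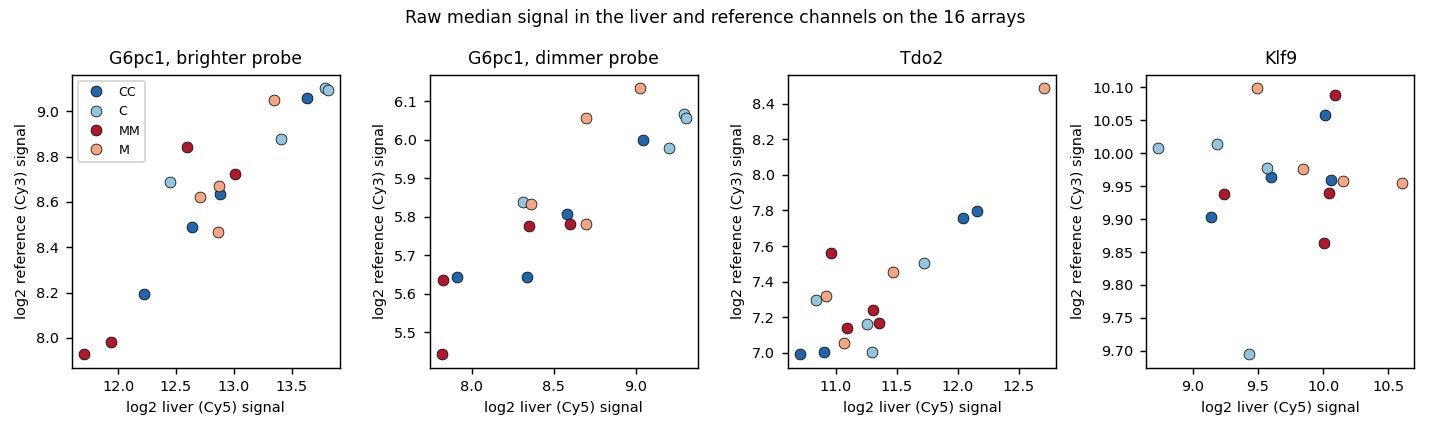
Raw median spot signal on each of the 16 arrays, liver (Cy5, x axes) against reference (Cy3, y axes), both in log2 units, for both G6pc1 probes, Tdo2 and Klf9, coloured by group. The channels rise together for G6pc1 and Tdo2 and not for Klf9, whose channels correlated at r = -0.13 with group means removed.

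The 10 genes were also compared with each other from array to array. Over 16 arrays, with group means removed, 45 pairs of genes were compared by permutation within groups, and 0 had an adjusted p under 0.05, while 4 had an unadjusted p under 0.05. The pairs had a median r of -0.04 and ran from -0.72 to 0.61. Nr3c1 and Pck1 had the lowest p (r = -0.719, rho = -0.538, permutation p = 0.0065, adjusted p = 0.202), with r = -0.591 without the 2 arrays farthest from the Nr3c1 median. Klf9 and Pck1 followed (r = 0.582, rho = 0.703, permutation p = 0.0090, adjusted p = 0.202), with r = 0.838 without the 2 farthest arrays. The Nr3c1 probe was well above background on only 8 of the 16 arrays, which limits every pair that holds it.

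Nr3c1 and Igfbp1 had r = -0.604 (adjusted permutation p = 0.293), and Klf9 and G6pc1 had r = -0.575 (adjusted permutation p = 0.401). Pck1 and Igfbp1, both fasting genes turned off by insulin, had r = 0.605 (adjusted permutation p = 0.436), whereas Pck1 and G6pc1 had r = -0.30. In the liver channel alone 1 pair was called, Klf9 and Pck1 at r = 0.714 (adjusted permutation p = 0.020). Mean deviations in log ratio rose from slide column 1 to slide column 4 for both, from -0.17 to 0.21 for Klf9 and from -0.07 to 0.11 for Pck1. In log ratio with slide column removed, a choice made after the values were seen, this pair had r = 0.51 (adjusted permutation p = 0.792). With slide row removed 1 other pair was called, Nr3c1 and Igfbp1 at r = -0.834 (adjusted permutation p = 0.020). With slide column removed instead, Nr3c1 and Igfbp1 had r = -0.57 (adjusted permutation p = 0.792).

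**Figure D5:**
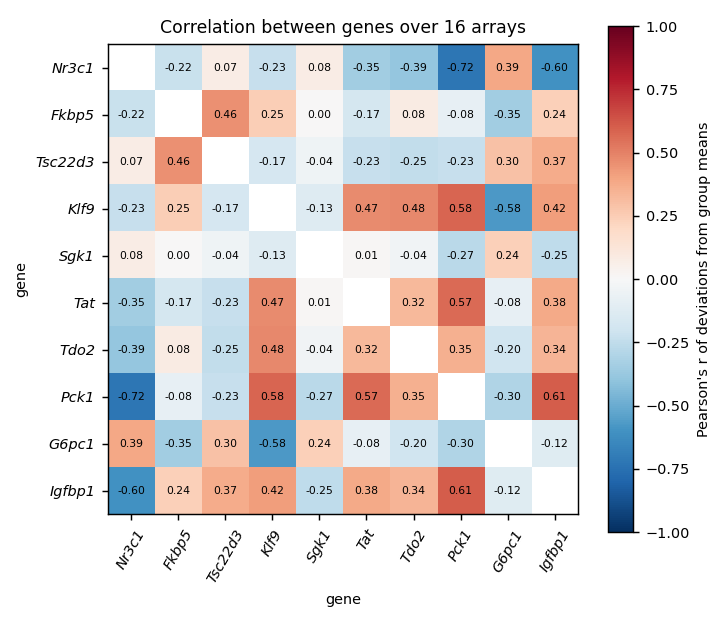
Pearson's r between the genes (both axes, in the order of their roles) over 16 arrays, as deviations of the log ratio from the group means, on a colour scale from -1 to 1. The strongest cells are Nr3c1 with Pck1 (-0.72), Pck1 with Igfbp1 (0.61) and Nr3c1 with Igfbp1 (-0.60), and none passed the adjusted threshold.

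The features whose array-to-array pattern was most like 3 of the genes are given as a description, from 7366 named features over the same 16 arrays and group-centred values, which share array and position on the slide. For Fkbp5 they were Ndel1 (r = 0.791), Shisa5 (0.784), Slc37a4 (0.784) and Lysmd2 (0.776). For Pck1 they were Ppp1r15a (r = 0.886), Habp2 (0.844), Mettl27 (0.840) and Slc49a4 (0.838). For Igfbp1 they were Oaf (r = 0.814), Nr1d1 (0.786), Il6r (0.781) and Ift70b (0.747).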

How the data were processed

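Per the file headers, the deposited scanner files (Agilent Feature Extraction 11.0.1.1) hold a median intensity per spot and per local background in each channel, and a log10 ratio of processed red over green signal that the authors' software had corrected for background and dye. The authors' deposited value table holds log2 values of liver over reference by comparison with the scanner files (r of 0.989 to 0.995, slopes of 0.979 to 0.994), with array medians of -0.04 to -0.03, and its making and centring are not given in the sources used. Liver was labelled Cy5 and reference Cy3, per the labels.

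Intensities were corrected with normexp (offset 50) and loess-normalized within arrays in limma 3.58.1 (R 4.3.3), controls at weight 0, outlier spots left out (732 to 1138 per array). Of 30367 probes 18005 were given a symbol through accessions in the RefSeq GRCr8 table, and the brightest probe stood for a gene. A feature was tested where its liver spots stood well above background in 3 or 4 arrays of some group. The log ratios of 16 arrays were fitted as 4 group means with 12 residual degrees of freedom, and p-values were adjusted by Benjamini-Hochberg over 11090 features. The number of arrays limits the precision. Correlations used 100000 permutations within groups in Python 3.11.15. The fits were tested on simulated data.

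CC and MM carry the same replicate numbers in the labels. After group means were removed, the 4 same-number pairs correlated at 0.157 to 0.582. A pair of different numbers in the same slide row reached 0.445 (CC replicate 1 with MM replicate 2). Pairs from different rows went down to -0.564 (CC replicate 3 with MM replicate 1). The numbers coincide with slide rows, so these correlations cannot tell a pairing by number from slide row. The replicate number was used as a block only as an alternative. Alternatives were other background correction, normalization, channels, filters, probes, slide row and replicate blocks, and each array left out. The slide column block and the fits without column 1, also of the lists and named genes, were chosen after seeing the data.

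The genes and pathway lists were chosen with earlier results of these data known. Named were all 10 genes, from each list the 2 lowest p-values per fostering contrast, and the 4 features most like Fkbp5, Pck1 and Igfbp1. Some genes that this rule names are not reported here.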

Additional observations from a re-analysis of the deposited data

Results flagged for a closer look

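Over 48 groups of 4 arrays (12 probes in 4 groups), 2 held an array far from the others by Dixon's test at its 95% critical value. Chance marks about 1 in 20 groups. Both were C replicate 11, a first-column array. Its Tat log ratio was 2.06, where the other C arrays ran from 3.66 to 3.94 (gap 0.850 of the range). Its Tdo2 log ratio was 5.26, where the other C arrays ran from 5.35 to 5.37 (gap 0.834).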

How the results depend on the processing

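Under every alternative that gave a value, the 10 genes had 0 calls in CC minus C, MM minus M, their difference and MM minus CC. In M minus C there was 1 call with the scanner software's log ratio (G6pc1), 1 in the liver channel alone (Klf9), and 0 to 1 with 1 array left out (Klf9 without M replicate 5). The call count over all features was 0 in each fostering comparison under each alternative, apart from 1 in CC minus C with the scanner software's log ratio. In M minus C it was 459, but 1366 with the scanner software's log ratio, 27 in the liver channel alone, 1203 with slide row as a block, 190 within slide row 1, 4 within slide row 2 and 249 without column 1. In MM minus CC it was 100, but 487 with the scanner software's log ratio, 18 in the liver channel alone, 436 with slide row as a block, 1 within slide row 2 and 28 without column 1. With 1 array left out it ran from 215 to 534 in M minus C, moving by over 1.5 times without C replicates 9, 10, 11 or 12 or M replicates 5, 6 or 8, and from 36 to 111 in MM minus CC, moving so without CC replicates 1, 2 or 3 or MM replicates 2 or 4. With the replicate number as a block, MM minus CC gave 135 calls, and the block changed no call on the 10 genes. Calls among the 45 gene pairs were 0, but 1 in the liver channel alone and 1 with slide row removed. Nr3c1 and Insr have no value where a feature had to be well above background on all 16 arrays.

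Among 57 values of single genes, the called ones kept their call in 10 of 12 alternatives for Mdh2 and for Hsp90ab1 in M minus C, in 9 of 13 for Hsp90ab1 in MM minus CC and in 4 of 12 for Fbp1. Signs turned as follows, on called values only for Hsp90ab1, and the cause was not tested. Without background subtraction the sign turned for Tdo2 0.010 in the difference of differences. With the scanner software's log ratio it turned for Tsc22d3 0.040 and Tdo2 -0.012 in CC minus C, Klf9 0.013 and Pck1 0.0040 in MM minus M, Tdo2 0.19 and Pck1 0.044 in the difference of differences. In the deposited value table it turned for Klf9 0.0034 in MM minus M, Tdo2 0.037 in the difference of differences. In the liver channel alone it turned for Pck1 0.0018 in CC minus C, Klf9 0.0041 and Tdo2 -0.18 in MM minus M, Nr3c1 0.017 and G6pc1 0.052 in the difference of differences, Sgk1 0.028, Tat 0.047, Tdo2 0.24, Igfbp1 -0.012 and Hsp90ab1 0.086 in M minus C, Fkbp5 0.15 and Hsp90ab1 0.34 in MM minus CC. Within slide row 1 it turned for Tsc22d3 0.012, Tdo2 -0.068 and Pck1 0.011 in CC minus C, Nr3c1 -0.029, Fkbp5 0.16, Klf9 0.27, Tat 0.16, Pck1 0.049 and Igfbp1 0.22 in MM minus M, Fkbp5 0.093, Tat 0.46, Tdo2 0.29 and Pck1 0.038 in the difference of differences, Fkbp5 -0.16 and Tsc22d3 -0.092 in M minus C, Tsc22d3 -0.38 in MM minus CC. Within slide row 2 it turned for Fkbp5 -0.0089, Sgk1 -0.084 and Tat 0.11 in CC minus C, Tsc22d3 0.063, Tdo2 -0.18 and G6pc1 0.025 in MM minus M, Nr3c1 0.089, Tsc22d3 0.19, Sgk1 0.078 and G6pc1 0.074 in the difference of differences, Tat 0.43 in M minus C, Nr3c1 0.085, Klf9 -0.060, Sgk1 0.034 and Pck1 -0.14 in MM minus CC. Without the 4 arrays of slide column 1 it turned for Tdo2 -0.0022 in MM minus M, Tat 0.39 and Pck1 0.062 in the difference of differences, Nr3c1 0.0059, Sgk1 0.099 and Igfbp1 -0.0043 in M minus C. With the other probe of a gene it turned for Nr3c1 -0.010 in MM minus M, G6pc1 0.015 in the difference of differences.

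With 1 array left out in turn, 32 of the 57 values turned in at least 1 fit. In CC minus C, Fkbp5 ran from -0.041 to 0.11, Tsc22d3 ran from -0.17 to 0.084, Sgk1 ran from -0.14 to 0.26, Tat ran from -0.53 to 0.095, Pck1 ran from -0.13 to 0.051 and G6pc1 ran from -0.17 to 0.026. In MM minus M, Nr3c1 ran from -0.052 to 0.16, Fkbp5 ran from -0.23 to 0.13, Tsc22d3 ran from -0.50 to 0.15, Klf9 ran from -0.17 to 0.099, Sgk1 ran from -0.098 to 0.054, Tdo2 ran from -0.037 to 0.077, Pck1 ran from -0.24 to 0.0046 and Igfbp1 ran from -0.34 to 0.12. In the difference of differences, Nr3c1 ran from -0.15 to 0.066, Fkbp5 ran from -0.26 to 0.099, Tsc22d3 ran from -0.44 to 0.20, Sgk1 ran from -0.29 to 0.12, Tat ran from -0.37 to 0.26, Tdo2 ran from -0.12 to 0.022, Pck1 ran from -0.20 to 0.041, G6pc1 ran from -0.18 to 0.018 and Igfbp1 ran from -0.058 to 0.57. In M minus C, Fkbp5 ran from -0.14 to 0.22, Sgk1 ran from -0.16 to 0.061, Tat ran from -0.50 to 0.13 and Igfbp1 ran from -0.071 to 0.56. In MM minus CC, Fkbp5 ran from -0.13 to 0.044, Tsc22d3 ran from -0.0017 to 0.64, Klf9 ran from -0.048 to 0.11, Sgk1 ran from -0.32 to 0.083 and Pck1 ran from -0.073 to 0.17. Slide row or column as a block, the filters on dim features and keeping outlier spots turned none. Signal little above background limits Nr3c1 most.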
